A study of Homo sapiens with 12 samples.

Results

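TFIIIC and TFIIIA are the DNA-binding factors that recruit RNA polymerase III (Pol III) to most of its short-RNA genes, and the mRNAs of all 7 of their genes were measured here: GTF3A for TFIIIA, and GTF3C1, GTF3C2, GTF3C3, GTF3C4, GTF3C5 and GTF3C6 for the subunits of TFIIIC. They were chosen by name, not by their values, though with earlier results of these data known, and are 7 of 34318 genes with a transcript in the table. The study's question was what loss or inhibition of Pol III does to the mRNAs of protein-coding genes, addressed in 12 mRNA libraries of HEK293T, a transfectable human embryonic kidney line, in 4 groups of 3. In the first experiment Lipofectamine RNAiMAX carried in either a control siRNA, siControl, or siPOLR3A, directed at the gene of the largest Pol III subunit, for 2 days. In the second, cells received 0.1% DMSO, the vehicle, or 25 µM ML60218, a small-molecule inhibitor of Pol III, for 4 hours. The labels repeat the siRNA transfection text for the DMSO and ML60218 samples without naming an siRNA, so whether those cells were also transfected was not settled here. All groups come from 1 cell line, and the labels do not say whether replicates were separate cultures, so p-values measure the spread between these samples.

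Pol III genes carry promoter elements inside the transcribed region. TFIIIC binds the A box and B box of transfer RNA genes and then places TFIIIB, which recruits the polymerase; at 5S ribosomal RNA genes TFIIIA, a zinc-finger protein, binds first and TFIIIC binds on top of it. In TFIIIC, GTF3C1 is the large subunit that contacts the B box and forms a lobe with GTF3C2 and GTF3C4. GTF3C3, which contacts TFIIIB, GTF3C5, which reaches the A box, and the small subunit GTF3C6 form the other lobe. TFIIIA also binds 5S RNA itself and carries it through the cytoplasm.

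Stretches of coding sequence that tell forms of GTF3C1 and GTF3A apart are shown here because, after the siRNA, the estimated reads of the GTF3C1 forms moved in opposite directions while the gene's total was not called. GTF3C1-201, the long form, keeps 75 bases (25 codons) at the 3′ end of its exon 34 of 37 that the short form GTF3C1-202 lacks, at chr16:27464320-27464394 on the minus strand of GRCh38. GTF3A-201, the main coding form, keeps exon 5, 74 bases at chr13:27432731-27432804 on the plus strand. GTF3A-202 skips it and is annotated as a target of nonsense-mediated decay, the pathway that removes mRNAs with an early stop. Both stretches were read from GENCODE 29 and are written 5′ to 3′, with the bases that differ in capitals and 15 shared bases on each side.
GTF3C1-201: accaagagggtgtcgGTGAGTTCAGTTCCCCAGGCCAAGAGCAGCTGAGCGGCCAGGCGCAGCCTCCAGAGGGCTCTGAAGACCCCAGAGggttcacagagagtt
GTF3A-201: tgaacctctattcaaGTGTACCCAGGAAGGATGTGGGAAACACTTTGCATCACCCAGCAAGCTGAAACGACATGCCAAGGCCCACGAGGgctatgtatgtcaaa
The GTF3C1 stretch begins with the letters GTGAGT, directly after the last base of exon 34 in the short form. As annotated, GTF3C1-202 also has 72 bases that GTF3C1-201 lacks, and GTF3A-201 has 192 bases in all that GTF3A-202 lacks. The 2 GTF3C1 forms share 6943 bases, 98.9% of the long and 99.0% of the short form as annotated in GENCODE 29. The deposited version of GTF3C1-201 is longer than this annotated form, so these counts of differing and shared bases may not hold for the forms as quantified.

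All 7 genes were well above the floor of detection. Each held between 1851 and 13084 estimated reads in every library, in library totals of 37008325 to 49479476. Per length, in TPM (abundance scaled for transcript length and library total), GTF3C6 stood highest in every group, at 115 ± 3.57 in siControl, 136 ± 7.56 in siPOLR3A, 153 ± 5.93 in DMSO and 141 ± 6.22 in ML60218 (SD, n = 3). GTF3A came next, at 65.2 ± 4.62, 61.4 ± 2.37, 84.7 ± 2.96 and 87.5 ± 5.60 TPM in the same order. GTF3C4 was lowest in every group, at 23.6 ± 1.18, 31.1 ± 0.305, 27.4 ± 1.86 and 29.3 ± 3.39 TPM. Its libraries did not overlap those of the gene above it in any group. GTF3A overlapped with the gene below it in siControl only, where that gene was GTF3C3. The large subunit GTF3C1 and the small subunit GTF3C6, partners in 1 complex, had means over 12 libraries of 53.2 and 136 TPM. Among 12631 protein-coding genes at 1 TPM or more, GTF3C6 ranked 809 and GTF3C4 ranked 4758.

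**Figure D1:**
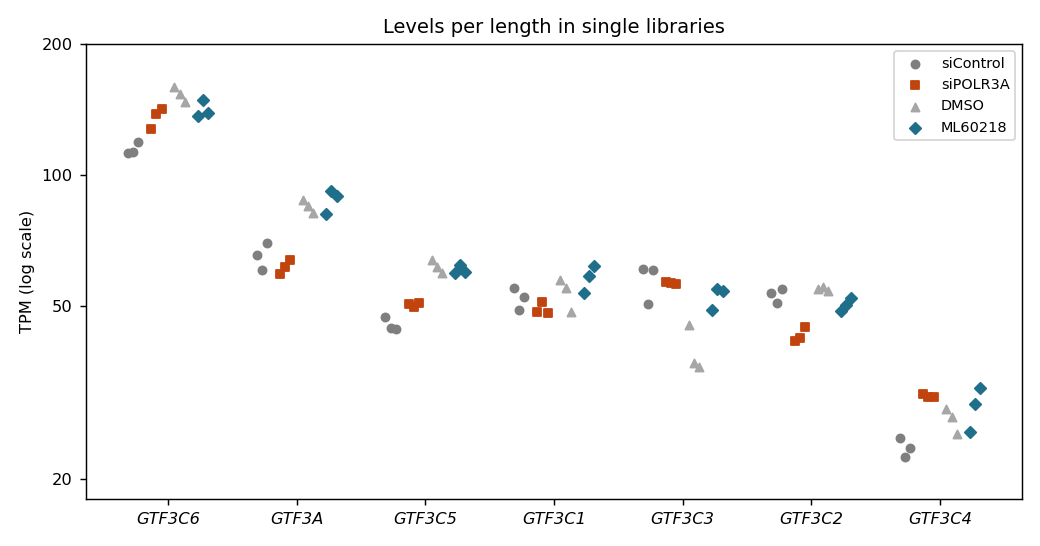
TPM (log scale) of each gene in each library, with genes ordered by their mean over 12 libraries and marker shapes for the 4 groups. GTF3C6 lies at 112.5 TPM or more and GTF3C4 at 32.3 TPM or less in every library, and the other genes lie between.

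The middle of the order differed between groups. In siControl GTF3C3 (57.4 ± 5.83 TPM), GTF3C2 (53.0 ± 2.03) and GTF3C1 (52.0 ± 3.08) overlapped with their neighbours, and GTF3C5 (45.2 ± 1.65) lay below them. In DMSO GTF3C5 (61.6 ± 2.15 TPM) came directly after GTF3A, and GTF3C3 (39.4 ± 5.02) directly above GTF3C4. In ML60218 the 4 genes from GTF3C5 (60.5 ± 1.36 TPM) through GTF3C1 (57.9 ± 4.11) and GTF3C3 (52.5 ± 3.08) to GTF3C2 (50.3 ± 1.73) each overlapped with the next. In siPOLR3A GTF3C3 (56.5 ± 0.321 TPM) came after GTF3A and GTF3C2 (42.8 ± 1.68) directly above GTF3C4, and of the others only GTF3C5 (50.3 ± 0.506) and GTF3C1 (49.2 ± 1.53) overlapped. The siRNA and compound experiments were separate, and the levels of their controls are set side by side with no test.

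After POLR3A depletion, the mRNAs of TFIIIC subunits moved in different directions. GTF3C4, GTF3C5 and GTF3C6 rose, GTF3C2 and GTF3A fell, and GTF3C1 and GTF3C3 did not pass the test. GTF3C2 and GTF3C4, which share a lobe of the complex, changed most and in opposite directions. Thus 5 of 7 genes were called at an adjusted p under 0.05 (edgeR's quasi-likelihood test, Benjamini-Hochberg over all genes), where 56.6% of all genes tested were called, 27.4% higher and 29.2% lower. The CPM (estimated reads scaled by library total and TMM factor, the trimmed-mean scaling of edgeR) of 5 of 7 did not overlap between the groups, against 63.4% of all genes. The median size of the log2 fold change was 0.24 over the 7 genes and 0.23 over all genes. In bulk libraries, less RNA per cell and fewer cells with the RNA cannot be told apart.

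Marker genes of cell type moved in the same comparison. The 4 filament markers had a summed level of 537 to 580 TPM in siControl and 358 to 368 TPM in siPOLR3A, with NEFM at −1.39, NEFL at −0.68 and VIM at −0.52 called lower and INA at 0.25 higher (log2, edgeR). Of 4 epithelial markers tested 3 rose, EPCAM by 0.90, CDH1 by 0.47 and KRT18 by 0.14. KRT8 went the other way, at −0.56, and was not called (adjusted p 0.0724, edgeR). It was called with DESeq2, with no filter on low counts and after removal of the GC and length trend. With a replicate block added to that removal it was not called. The epithelial list's summed level was 34.2 to 36.3 TPM in siControl and 38.3 to 41.1 TPM in siPOLR3A. The calls of KRT18 and INA were lost with DESeq2, and that of KRT18 also after removal of the GC and length trend. LRP2 of the kidney markers rose by 0.23, with the list's sum at 13.5 to 16.1 and 14.9 to 17.1 TPM. Its call was lost on the TPM scale and with an offset for isoform length. COL1A1 of the markers of other cell types rose by 0.32, with that list's sum at 26.9 to 28.5 and 29.3 to 34.8 TPM. ACTA2 of that list went the other way, at −0.28, and was not called (adjusted p 0.0689, edgeR). It was called with all 12 libraries in the fit and after removal of the GC and length trend, but not when that removal had a replicate block. The part of these shifts in the changes of the 7 genes was not tested.

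GTF3A encodes the factor that binds first at 5S genes, and its mRNA was slightly lower. GTF3A had 62.7, 62.8 and 67.9 CPM in siControl and 57.2, 60.9 and 62.1 CPM in siPOLR3A. The siPOLR3A libraries all lay below the siControl libraries. The change was −0.10 ± 0.041 on the log2 scale (SE; adjusted p 0.0446, edgeR). That call was lost in 10 of 14 other settings and when any 1 of 3 libraries was left out (siControl replicate 3, siPOLR3A replicate 1 or 2), with adjusted p up to 0.37.

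In the lobe that binds the B box, GTF3C2 fell and GTF3C4 rose while GTF3C1 did not pass the test. GTF3C2 had 103, 107 and 111 CPM in siControl and 78.4, 78.4 and 79.7 CPM in siPOLR3A. Every siPOLR3A library was lower, with a change of −0.44 ± 0.031 on the log2 scale (SE; adjusted p 2.8e-08, edgeR). GTF3C4, for which a histone acetyltransferase activity has been described, had 146, 140 and 145 CPM in siControl and 188, 191 and 187 CPM in siPOLR3A. Every siPOLR3A library was higher, with a change of 0.39 ± 0.026 on the log2 scale (SE; adjusted p 1.29e-08). GTF3C1 had 267, 269 and 263 CPM in siControl against 256, 274 and 269 CPM in siPOLR3A. These groups overlapped, and the change was −0.00073 ± 0.027 on the log2 scale (SE; adjusted p 0.983). It was called only with an offset for isoform length, at −0.10 (adjusted p 0.0369). Exons of GTF3C2 overlap antisense genes on the opposite strand (365 bases with AC074117.1 and 1110 with GTF3C2-AS1, not analysed here), and those of GTF3C4 overlap DDX31 by 367 bases. The library kit keeps strand, but the strand setting of the authors' counting is not given in the sources used here.

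In the lobe that reaches the A box, GTF3C5 and GTF3C6 rose by similar amounts. GTF3C5 had 55.4, 56.0 and 56.7 CPM in siControl and 66.2, 64.9 and 66.9 CPM in siPOLR3A, a change of 0.24 ± 0.030 on the log2 scale (SE; adjusted p 1.35e-05, edgeR). It stayed called but was smaller with the trend against GC content and length removed (0.12), with the isoform-length offset (0.13) and on the TPM scale (0.15). GTF3C6 had 64.6, 69.6 and 69.4 CPM in siControl and 75.6, 81.3 and 84.0 CPM in siPOLR3A, a change of 0.24 ± 0.043 on the log2 scale (SE; adjusted p 0.000391). In both genes every siPOLR3A library lay above every siControl library. GTF3C3 had 121, 114 and 117 CPM against 114, 115 and 110 CPM. Its groups overlapped, with a change of −0.05 ± 0.030 on the log2 scale (SE; adjusted p 0.176).

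**Figure D2:**
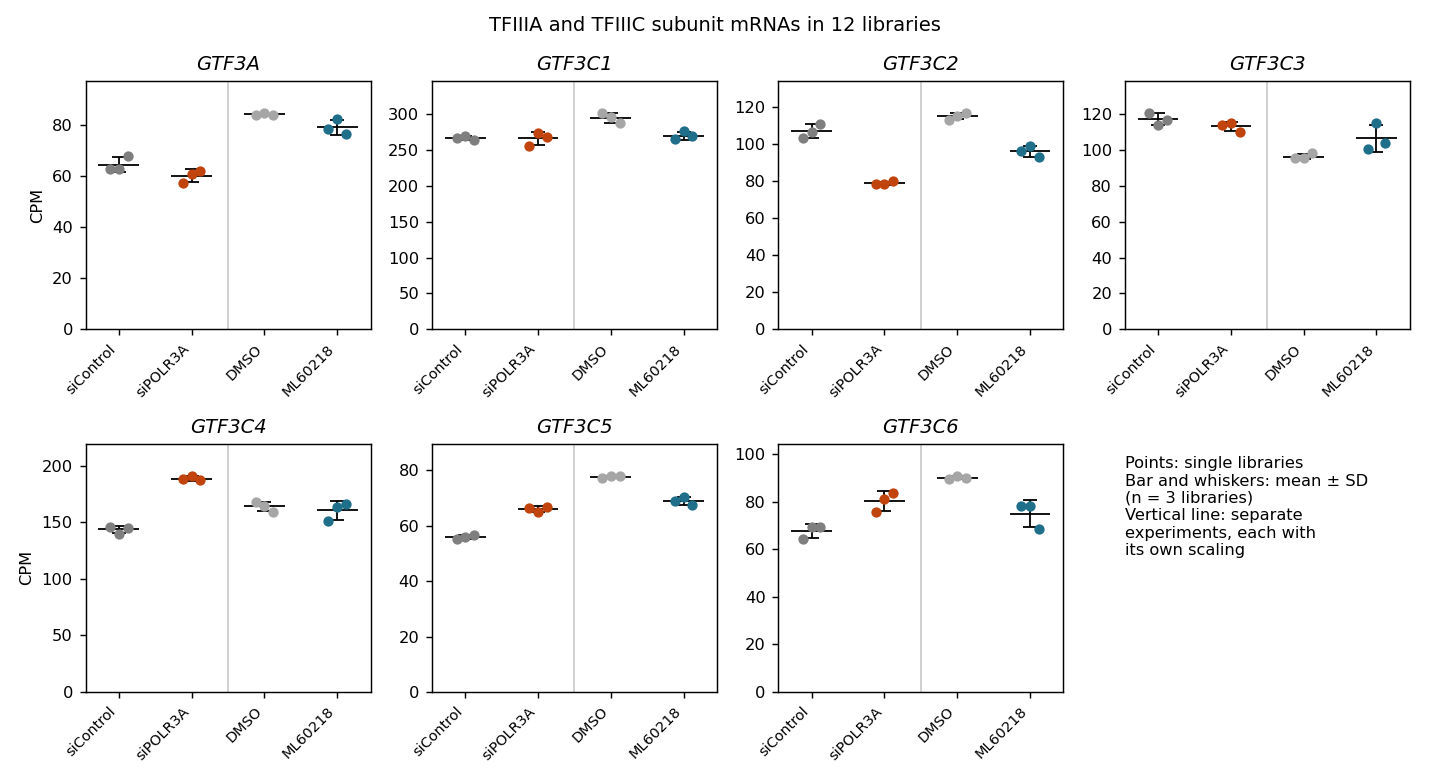
CPM of the 7 genes in each library (points), with the mean and SD of each group of 3, from 0 on each axis; the vertical line parts the experiments, which were scaled separately. GTF3C2 was lower and GTF3C4 higher in all 3 siPOLR3A libraries, while GTF3C1 stayed between 256 and 274 CPM in that experiment.

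The total of GTF3C1 did not pass the test after the siRNA, but both of its main coding forms did, in opposite directions. GTF3C1-201, with the 75-base stretch shown above, took 44.4%, 40.2% and 39.4% of the gene's estimated reads in siControl and 30.1%, 25.2% and 21.3% in siPOLR3A. GTF3C1-202, without it, took 52.7% to 58.1% and 67.2% to 76.7%. The groups of neither form overlapped. In the fit over all transcripts, GTF3C1-201 fell from 111 ± 7.89 to 67.8 ± 10.1 CPM (SD, n = 3), a change of −0.71 ± 0.118 on the log2 scale (SE; adjusted p 0.0146, edgeR), and GTF3C1-202 rose from 151 ± 7.45 to 192 ± 17.8 CPM, a change of 0.35 ± 0.076 on the log2 scale (SE; adjusted p 0.0347). Leaving out siControl replicate 1 or 2 or siPOLR3A replicate 2 took the GTF3C1-201 call away (adjusted p up to 0.0556), and GTF3C1-202 kept its call in 1 of 6 such fits. The error of dividing reads between forms this alike is not in the deposited values, so the p-values leave it out.

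The siControl libraries stood apart in this measure. In DMSO GTF3C1-201 took 26.2%, 29.7% and 35.3% of the reads, and in ML60218 29.7%, 30.5% and 29.1%. All 6 of these shares lie below the lowest in siControl, and 4 of them lie within the range of siPOLR3A. Neither form passed the test after ML60218: GTF3C1-201 had a change of −0.16 ± 0.090 on the log2 scale (SE; adjusted p 0.421, edgeR) and GTF3C1-202 −0.13 ± 0.073 (SE; adjusted p 0.395).

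Of 59 transcripts of the 7 genes, 38 were tested in the siRNA experiment and 6 were called, 3 higher and 3 lower, where 13.1% of all transcripts were called, 5.73% higher and 7.4% lower. The others besides those of GTF3C1 were GTF3C2-201, lower at −0.50, GTF3C4-201, higher at 0.38, GTF3C6-201, higher at 0.25, and GTF3C5-210, a short noncoding transcript, lower at −0.58. GTF3C5-210 lost its call with each of the 6 libraries left out, and GTF3C6-201 with 5 of them. GTF3C2-201, GTF3C4-201 and GTF3C6-201 each hold at least 84.0% of their gene's reads in every library. GTF3A-202, the form without exon 5, took 10.8% ± 1.77 of GTF3A reads in siControl, 8.72% ± 0.76 in siPOLR3A, 8.90% ± 0.50 in DMSO and 6.56% ± 1.80 in ML60218 (SD, n = 3). Its level did not pass the test in either experiment, with log2 fold changes of −0.42 ± 0.132 (SE; adjusted p 0.105, edgeR) and −0.54 ± 0.196 (SE; adjusted p 0.204).

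**Figure D3:**
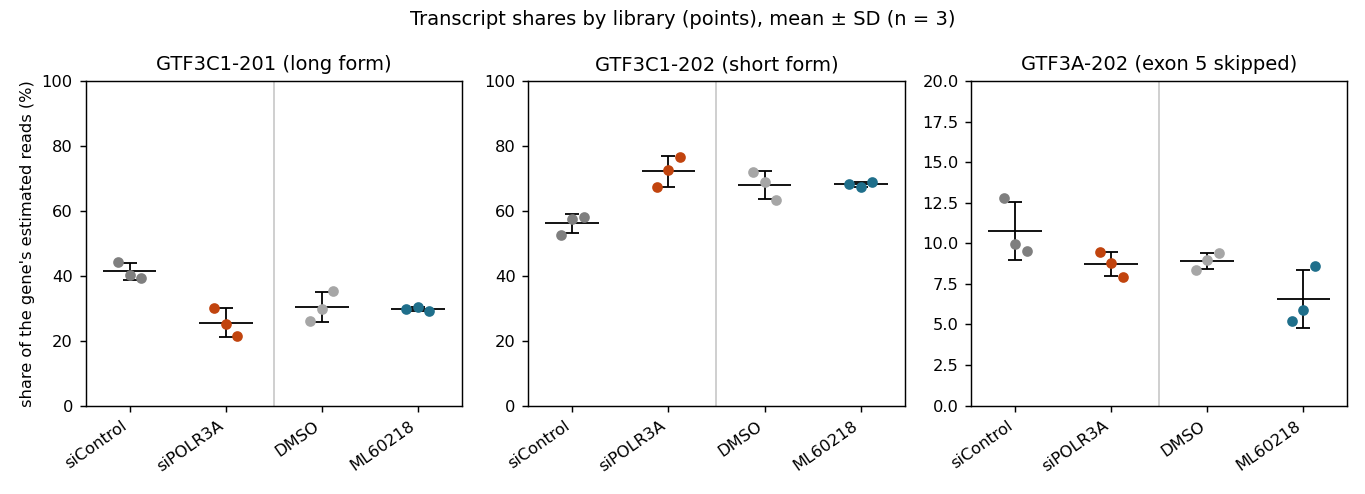
Share of the gene's estimated reads (%) taken by GTF3C1-201, GTF3C1-202 and GTF3A-202 in each library (points), with the mean and SD of each group of 3; the axis for GTF3A-202 ends at 20%. GTF3C1-201 took 39.4% to 44.4% in siControl and 21.3% to 35.3% in the 9 other libraries.

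Reads of GTF3C5 were divided among several forms. GTF3C5-202 took 53.4% ± 4.09 of its reads in siControl and 50.4% ± 0.49 in siPOLR3A (SD, n = 3). GTF3C5-203, which lacks the 419 coding bases of exons 2 and 3 of GTF3C5-202, took 20.4% to 23.2% and 21.7% to 24.9%. GTF3C5-204, which has an added exon of 21 bases (7 codons) at chr9:133054944-133054964, took 10.7% ± 4.37 and 15.2% ± 1.55 (SD, n = 3). None of these 3 was called, with log2 fold changes of 0.14, 0.33 and 0.73 and adjusted p of 0.237, 0.0538 and 0.249 (edgeR), although the gene total rose. GTF3C3-201 held 80.5% to 88.4% of GTF3C3 reads in every library, beside the short forms GTF3C3-205 and GTF3C3-202 at 3.91% to 8.05%, and none of the 3 was called in either experiment.

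After 4 hours of ML60218, most of the called genes were lower. GTF3C1, GTF3C2, GTF3C5 and GTF3C6 fell, GTF3C3 rose, and GTF3A and GTF3C4 did not pass the test. So 5 of 7 were called (edgeR), where 39% of all genes tested were called, 18.1% higher and 20.9% lower. The CPM of 6 of 7 did not overlap between the groups, against 51.9% of all genes. The median log2 fold change was −0.13 over the 7 genes and 0.005 over all genes tested, and the median size was 0.14 against 0.17. The filament markers summed to 474 to 510 TPM in DMSO and 538 to 597 TPM in ML60218, with NEFL and NEFM called higher and INA lower, and the epithelial markers to 39.2 to 40.8 and 42.8 to 45.3 TPM, with KRT8 called higher. INA and KRT8 lost their calls in some other settings, and on this TPM scale the median of all genes was also above 0, at 0.11. NEFL lost its call after removal of the GC and length trend. VIM was not called by edgeR as reported here, but was called with total counts, with upper quartile scaling and on the TPM scale. Kidney markers summed to 8.68 to 9.17 and 9.53 to 10.4 TPM and those of other cell types to 31.6 to 33.3 and 33.2 to 37.6 TPM, with none of the 6 genes tested called by edgeR or DESeq2 and 1, LRP2, at an unadjusted p under 0.05 with either; LRP2 was called with total counts and upper quartile scaling. The part of these shifts in the changes below was not tested either.

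TFIIIA mRNA was not called. GTF3A had 84.0, 84.6 and 84.1 CPM in DMSO and 78.4, 82.4 and 76.4 CPM in ML60218. The groups did not overlap, and the change was −0.09 ± 0.038 on the log2 scale (SE; adjusted p 0.0828, edgeR). On the TPM scale its sign turned, to 0.04 (not called). After removal of the GC and length trend it was called at −0.13.

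In the B-box lobe, GTF3C2 fell again. It had 113, 115 and 116 CPM in DMSO and 96.2, 98.9 and 92.8 CPM in ML60218, a change of −0.26 ± 0.036 on the log2 scale (SE; adjusted p 0.000624, edgeR). Every ML60218 library was lower. GTF3C1 had 301, 296 and 287 CPM in DMSO and 265, 276 and 269 CPM in ML60218, again with no overlap and a change of −0.13 ± 0.032 on the log2 scale (SE; adjusted p 0.0118). GTF3C1 lost its call without DMSO replicate 1 or 2, with scaling to total counts and with the isoform-length offset, and its sign turned on the TPM scale, to 0.11 (not called). GTF3C4 had 168, 165 and 159 CPM against 151, 164 and 166 CPM. Its groups overlapped, with a change of −0.03 ± 0.041 on the log2 scale (SE; adjusted p 0.594). After removal of that trend it was called at −0.19 (adjusted p 0.00412).

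In the A-box lobe, GTF3C5 and GTF3C6 fell and GTF3C3 rose. GTF3C5 had 77.2, 77.9 and 77.9 CPM in DMSO and 69.0, 70.3 and 67.4 CPM in ML60218, a change of −0.17 ± 0.035 on the log2 scale (SE; adjusted p 0.00404, edgeR). GTF3C6 had 89.7, 90.9 and 90.2 CPM in DMSO and 78.2, 78.4 and 68.6 CPM in ML60218, a change of −0.27 ± 0.051 on the log2 scale (SE; adjusted p 0.0031). For both genes every ML60218 library was lower. GTF3C3 had 95.7, 95.5 and 98.2 CPM in DMSO and 101, 115 and 104 CPM in ML60218, a change of 0.14 ± 0.048 on the log2 scale (SE; adjusted p 0.0396). Every ML60218 library was higher, but the call held in 1 of 6 fits that left out a library. It was lost with a replicate block (adjusted p 0.0525, edgeR) and after removal of the GC and length trend. With that trend removed the log2 fold change was smaller, at 0.06.

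For GTF3C3 the measure decided the size of the change. In TPM it had 45.2, 36.9 and 36.2 in DMSO and 49.0, 54.6 and 54.0 in ML60218, with no overlap. With limma on log2(TPM + 1) the log2 fold change was 0.41, and with the isoform-length offset 0.28, against 0.14 for CPM. On this TPM scale the median over all genes was 0.11, and GTF3C2, GTF3C5 and GTF3C6 kept their sign at −0.12, −0.03 and −0.12 and lost their calls. A transcript of 3818 bases that lies in the same block of the table, but has no GENCODE 29 match, was left out of GTF3C3. It held 502.5 to 1201.5 estimated reads per library. With it included, GTF3C3 had log2 fold changes of −0.01 after the siRNA and 0.20 after ML60218, the second of these called (adjusted p 0.00132).

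Among 39 transcripts tested in the compound experiment, 1 was called, where 3.23% of all transcripts tested were called, and 2.08% of all tested were called lower. It was GTF3C2-201, lower at −0.29 ± 0.035 (SE; adjusted p 0.0245, edgeR), from 106 ± 0.333 to 86.4 ± 2.67 CPM (SD, n = 3), and it lost its call with each library left out.

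**Figure D4:**
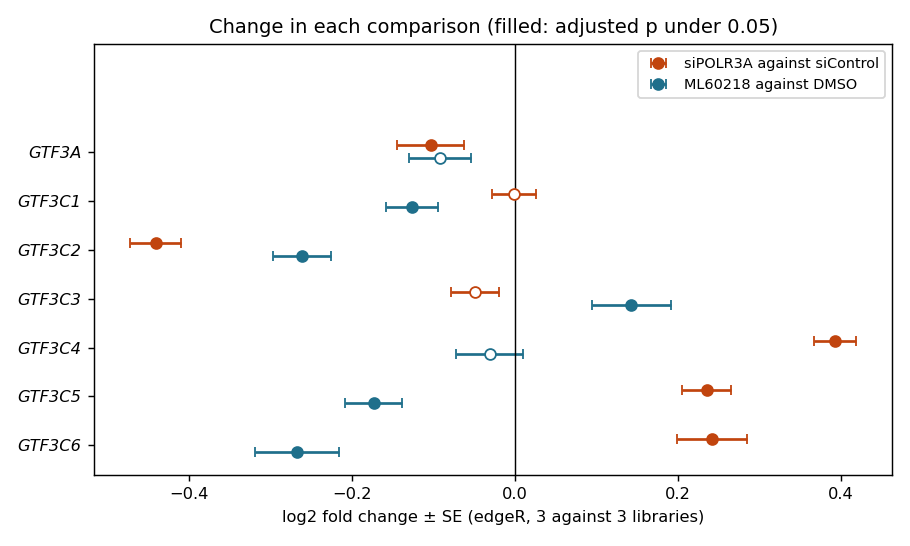
Log2 fold change with its SE for each gene after POLR3A siRNA and after ML60218 (edgeR, 3 against 3 libraries); filled points have an adjusted p under 0.05. GTF3C2 lies below 0 in both, and GTF3C5 and GTF3C6 lie above 0 after the siRNA and below 0 after the compound.

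The effects of siRNA and compound, which had separate control libraries and different times, differed for most of the genes. The siPOLR3A effect minus the ML60218 effect was called for 6 of 7 genes in a fit of all 12 libraries (edgeR), where 50.9% of all genes were called, 24.5% above 0 and 26.4% below 0. GTF3C6 had a difference of 0.52 ± 0.072 (SE; adjusted p 2.42e-05), GTF3C4 of 0.43 ± 0.051 (4.16e-06) and GTF3C5 of 0.41 ± 0.042 (8.13e-07), the last at 0.17 on the TPM scale, still called. These 3 genes had risen after the siRNA, and GTF3C5 and GTF3C6 had fallen after ML60218. GTF3C2 was lower in both, but fell further after the siRNA, with a difference of −0.17 ± 0.047 (adjusted p 0.00549). That call was lost with the isoform-length offset, at −0.06. GTF3C3 had a difference of −0.19 ± 0.061 (adjusted p 0.0185), which was lost after removal of the GC and length trend (−0.03) and without siPOLR3A replicate 3 and was larger on the TPM scale (−0.43) and with the isoform-length offset (−0.31). GTF3C1 had a difference of 0.13 ± 0.043 (adjusted p 0.0193), a call that held in 7 of 13 other settings. It was lost with total counts (0.10), after removal of the GC and length trend (0.11), with the isoform-length offset (−0.06) or without siPOLR3A replicate 2, DMSO replicate 1 or ML60218 replicate 1, and turned to −0.19 on the TPM scale (not called). GTF3A showed −0.01 ± 0.059 (adjusted p 0.946, edgeR), the 1 gene of the 7 that was not called.

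Several results kept their call and direction in every setting tried. After the siRNA, GTF3C2, GTF3C4, GTF3C5 and GTF3C6 were called in the same direction in all 14 other settings and all 6 fits without a library, and for the difference between the effects GTF3C4, GTF3C5 and GTF3C6 were called in all 13 settings and all 12 such fits. After ML60218, GTF3C2, GTF3C5 and GTF3C6 were called in 12 of 14 settings, the exceptions being both TPM fits, and in all 6 fits without a library.

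**Figure D5:**
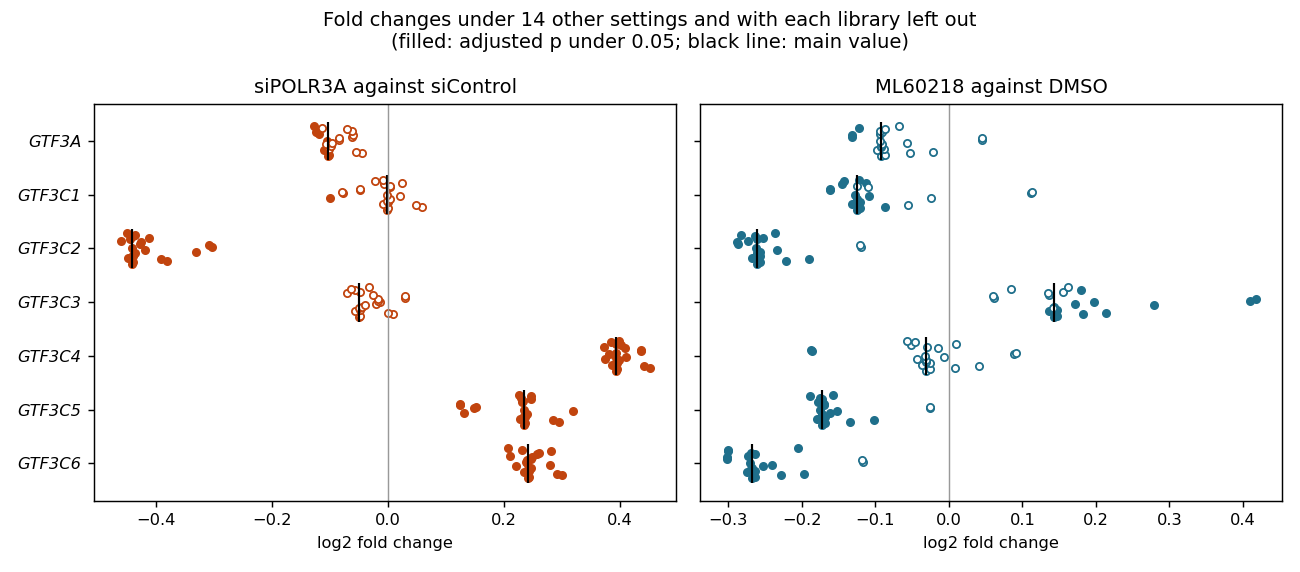
Log2 fold change of each gene under every setting tried (points), with the value given in the text as a black line; filled points have an adjusted p under 0.05. In the siRNA experiment the points of GTF3C2 lie between −0.46 and −0.30 and those of GTF3C4 between 0.37 and 0.45, all filled.

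The factors that act with TFIIIC and TFIIIA were counted in 4 lists. After the siRNA, 3 of 11 tested genes rose and 3 fell in the list of TFIIIB, the small nuclear RNA activating complex SNAPc, POU2F1 and ZNF143 (factors of SNAPc promoters), and the Pol III repressor MAF1; BDP1, a TFIIIB subunit, was not tested. SNAPC3, a subunit of SNAPc, fell from 96.5 ± 2.48 to 50.9 ± 1.08 CPM, a change of −0.92 ± 0.032 on the log2 scale (SE; adjusted p 1.73e-11, edgeR), and SNAPC2, of the same complex, rose by 0.53 ± 0.116 (adjusted p 0.00145) from 3.13 ± 0.262 CPM. After ML60218, 2 of 11 rose and 2 fell. SNAPC1 rose by 0.31 ± 0.063 (adjusted p 0.00406, edgeR) and TBP, a TFIIIB subunit, by 0.15 ± 0.040 (adjusted p 0.013). MAF1 fell by 0.27 ± 0.045 (adjusted p 0.00145) and ZNF143 by 0.20 ± 0.056 (adjusted p 0.0201). The MAF1 call held in 12 of 14 other settings. In the siRNA experiment MAF1 was higher, at 0.28 (adjusted p 2.52e-05), and so was TBP, at 0.46 (adjusted p 5.91e-08). There SNAPC1 was lower, at −0.20 (adjusted p 0.00146), and ZNF143 was not called. TBP and ZNF143 were named after their values were seen.

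Of 18 Pol III subunits, 6 rose and 6 fell after the siRNA, and 3 rose and 9 fell after ML60218. The siRNA's own target, POLR3A, is counted among those that fell and in the medians below. POLR3A, the target, fell from 90.8 ± 3.56 to 17.6 ± 2.65 CPM after its siRNA (log2 fold change −2.36; adjusted p 1.94e-05, edgeR) and was also lower after ML60218, at −0.38 (adjusted p 0.000229). POLR3F rose by 0.50 ± 0.053 after the siRNA (adjusted p 2e-06), and POLR2L, which all 3 nuclear RNA polymerases share, fell by 0.67 ± 0.107 after ML60218 (adjusted p 0.0037). The median log2 fold change of the list was −0.003 and −0.16, against 0.005 over all genes in each experiment.

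Partners of 5S RNA, the product of TFIIIA's target genes, were lower or not called: 4 of 8 fell after the siRNA and 5 of 8 after ML60218 (edgeR). Over all genes tested, 29.2% and 20.9% were called lower, and 56.6% and 39% were called in either direction. HEATR3, which helps import the ribosomal proteins that bind 5S RNA, fell by 0.35 ± 0.069 (adjusted p 0.000908) and RPL3, a ribosomal protein of the large subunit, fell by 0.24 ± 0.022 (adjusted p 3.75e-07) after the siRNA. RRS1 and RPF2, which bring the 5S particle into the early ribosome, fell by 0.45 ± 0.040 (adjusted p 0.000126) and 0.19 ± 0.036 (adjusted p 0.00279) after ML60218, RPF2 turning to 0.04 on the TPM scale. The list medians were −0.06 and −0.13.

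Of 19 cofactors and chromosomal partners of TFIIIC (nuclear factor I proteins, cohesin, condensin II, CTCF, MYC and others), 7 rose and 10 fell after the siRNA, and 2 rose and 6 fell after ML60218 (edgeR). STAG2, a cohesin subunit, rose by 0.53 ± 0.058 (adjusted p 0.000427) and NFIA, a nuclear factor I protein, by 0.41 ± 0.036 (adjusted p 2.88e-07) after the siRNA. SUB1, a transcriptional coactivator, fell by 0.36 ± 0.050 (adjusted p 0.000924) after ML60218. MYC rose by 0.74 ± 0.149 (adjusted p 0.0168, edgeR), from 98.0 ± 0.864 to 164 ± 31.7 CPM (SD, n = 3), and lost its call without any 1 of the DMSO replicates. In the siRNA experiment MYC was lower, at −0.26 (adjusted p 5.96e-06), and so was SUB1, at −0.15 (adjusted p 0.000444). With ML60218 NFIA was lower, at −0.23 (adjusted p 0.0058), and STAG2 was not called. Counts in these lists stand beside the shares called over all genes given above. These were 56.6% after the siRNA (27.4% higher, 29.2% lower) and 39% after ML60218 (18.1% higher, 20.9% lower).

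The 3′ UTRs were searched on the transcript strand for GAGGGA and GACGTA, 6-base sequences taken from earlier results of the siRNA experiment, in the main coding form of each gene. GAGGGA was present once in 3 of the 7 UTRs, those of GTF3C3, GTF3C4 and GTF3C5, and in 33.1% of 13644 genes; GACGTA was in 0 of 7 and in 3.6% of genes. UTR lengths ran from 91 bases in GTF3A to 6010 in GTF3C4, and the 2 letter strings do not overlap each other. The matches are shown with 12 bases on each side, 5′ to 3′, the match in capitals.
GTF3C3: gcccaattgtggGAGGGAaacaagtagagg
GTF3C4: gagacttctagaGAGGGAcagctcagaagt
GTF3C5: gtctggcctaatGAGGGAgccggggctccc
GTF3A, GTF3C1, GTF3C2 and GTF3C6 hold neither sequence in this window. A match is a match of letters only, and since the sequences were taken from this experiment nothing is read from it about the changes.

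The genes with the most similar pattern over the 12 libraries were found among 10287 protein-coding genes by the root mean square difference in log2 CPM, centred on each experiment's controls. For GTF3C1 they were CAND1 (0.019) and MZT1 (0.025), for GTF3C2 ALDH1B1 (0.022) and MRPL35 (0.031), and for GTF3C5 TRIM28 (0.02) and UBE2E1 (0.021). For GTF3C4 it was LRATD2 (0.034), for GTF3C6 CRYZ (0.028) and ATG2A (0.038), for GTF3C3 TARS1 (0.035) and TOP1MT (0.038), and for GTF3A CLDND1 and GCH1 (0.03 each). The median difference over all candidates was 0.17 to 0.28.

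GTF3A sits at chr13:27424544-27435823 (plus), GTF3C1 at chr16:27459555-27549913 (minus), GTF3C2 at chr2:27325849-27357034 (minus) and GTF3C3 at chr2:196763032-196799725 (minus) on GRCh38. GTF3C4 (chr9:132670035-132694955) and GTF3C5 (chr9:133030675-133058503), both on the plus strand, lie on the same chromosome, and GTF3C6 is at chr6:110958560-110967890 (plus). Exons of GTF3A overlap MTIF3 by 181 bases and those of GTF3C3 overlap CCDC150 by 236 bases, on opposite strands. The processed copies GTF3AP1, GTF3AP2, GTF3AP5 and GTF3AP6 held 0 to 3 reads per library, against 2096 to 3739 for GTF3A.

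The label gives kidney epithelial cells. Of 5 epithelial markers, KRT18 reached 24.5 to 36.7 TPM, EPCAM, CDH1 and KRT8 1.31 to 6.18 TPM, and KRT19 stayed under 1 TPM. Of the kidney markers, PAX2 and LRP2 were at 1 TPM or more in every library, LHX1 in some, and PAX8, CDH16, UMOD, AQP2 and SLC12A1 in none. The filament genes NEFL, NEFM, INA and VIM were above 1 TPM in every library, VIM at 267 to 435 TPM. Of 7 markers of other cell types, COL1A1, ACTA2 and CD68 were at 1 TPM or more in every library and PTPRC, PECAM1, CDH5 and ALB in none.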

How the data were processed

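Messenger RNA of 12 HEK293T libraries was analysed. The authors deposited 1 table with an estimated count and a TPM value per transcript and library, in columns that, per the file headers, have the names the program salmon writes; its version, settings and transcript release are not given in the sources used here. The submitters' processing notes name bcl2fastq 2.20, Trim Galore, DESeq2 and build hg38. Of 194142 transcripts, 158359 (81.6%) matched GENCODE 29 by stable identifier; the rest held 8.37% to 8.97% of reads and stayed out. The design had assumed counts per gene, so the transcripts' estimated counts were added up for each gene, then rounded. Genes passing filterByExpr (minimum count 10, total 15; all 7 genes passed) were TMM-scaled and tested with edgeR 4.0.16 in R 4.3.3 (robust two-sided quasi-likelihood), 6 libraries per comparison and 12 for the difference between effects, at a Benjamini-Hochberg adjusted p under 0.05 over all genes. The SE is the log2 fold change divided by the square root of F. Transcripts were fitted likewise over all transcripts. An exact permutation test of 3 against 3 cannot give p below 0.1. Tested on simulated data, the fit called 34% of changes of 0.25 on the log2 scale, 90% of 0.5 and 100% of 1 or 2, in each comparison (15426 and 15481 genes). Both simulations used the same spread between replicates, close to that of the siRNA experiment. The fitted coefficient of variation was 0.0554 there and 0.0712 with ML60218. Far fewer genes were changed than were called in the data, so these shares need not hold for either comparison. The alternatives used DESeq2 1.42.0, limma 3.58.1 on log2(TPM + 1) and log2(TPM + 0.1), other scalings, no filter, a replicate block, all libraries in 1 fit, an isoform-length offset, protein-coding transcripts only, neighbouring unmatched transcripts, removal of a GC and length trend, and leaving out each library.

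The genes and lists were chosen with earlier results of these data known. Named were all 7 genes, their transcripts with at least 5% of the reads, the 2 largest called changes of each list and comparison, POLR3A, the 2 nearest genes in pattern, overlapping genes and the cell markers; a few genes that this rule names are not reported here. Sequences and coordinates come from GENCODE 29 on GRCh38; the deposited versions of some transcripts differ from it in length, GTF3C1-201 having 7090 bases against 7018. No protein sequence is printed.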

Additional observations from a re-analysis of the deposited data

Results flagged for a closer look

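For 6 of the 7 genes the effect of POLR3A siRNA differed from that of ML60218 in the test of the difference itself (edgeR, 12 libraries, adjusted p under 0.05 over all genes). The siRNA effect minus the compound effect, on the log2 scale, was 0.52 for GTF3C6, 0.43 for GTF3C4, 0.41 for GTF3C5, 0.13 for GTF3C1, −0.17 for GTF3C2 and −0.19 for GTF3C3. Between 4 and 6 genes were called over the 13 other settings, 4 with the isoform-length offset and after removal of the GC and length trend, and GTF3C1 turned below 0 with that offset and on the TPM scale. Agent, exposure time and control libraries all differ between the experiments and cannot be told apart.

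Reads were present in data outside the comparisons. A transcript of 3818 bases without a GENCODE 29 match, in the GTF3C3 block of the table, held 9762 estimated reads over the 12 libraries, at least 502.5 in each, above the limit of 3 that a count of 0 allows. As a share of GTF3C3 reads with it included, it held 14.4% ± 3.22 in siControl, 16.6% ± 1.78 in siPOLR3A, 15.4% ± 1.32 in DMSO and 18.7% ± 3.75 in ML60218 (SD, n = 3).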

How the results depend on the processing

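After ML60218, 1 of the 7 genes (GTF3C3) was called with limma on log2(TPM + 1) and on log2(TPM + 0.1), and leaving out a library gave 3 to 5 against 5. On these TPM scales the median of all genes rose to 0.11 and 0.14 and 82.2% and 82.5% of calls were higher, against 46.4%. Other scalings also moved that split: total counts to 67.0%, upper quartile to 58.6% (58.7% against 48.4% after the siRNA), and GC and length removal to 32.3%. GTF3C1 after ML60218 turned to 0.11 in both TPM fits, its difference between effects to −0.0649 with the isoform-length offset and to −0.19 in both TPM fits, and RPF2 to 0.0407 and 0.0411 in them; the cause was not tested. Transcripts called numbered 2 to 5 after the siRNA with a library left out, against 6. After ML60218 they numbered 4 with DESeq2, 0 with a replicate block and 0 with any library left out (edgeR), against 1, and 6 of 39 tested had an unadjusted p under 0.05 in the fit reported. Same-numbered libraries did not deviate together (correlations of −0.07 to 0.07), so the replicate numbers are taken only as names. With the replicate block 5, 4 and 6 genes were called after the siRNA, after ML60218 and for the difference, and over all genes 8493, 5393 and 7658 against 8722, 6029 and 8031. Each of the 7 genes held at least 1851 estimated reads in every library.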
